A study of Mus musculus with 7 samples.

Results

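Layer 5 type subcerebral projection neurons were taken here as the barcodes that carried the transcripts of 5 genes of this class, and 741 of 23005 kept barcodes (3.22%) qualified. A barcode was kept with at least 500 genes and at most 10% mitochondrial counts. It was a member with at least 3 summed UMIs (unique molecular identifiers, each standing for 1 captured transcript) of Ldb2, Tcerg1l, Kif26a, Cntn6 and Fezf2. It also had at most 2 UMIs of the corticothalamic genes Hs3st4, Tle4, Nxph3, Syt6 and Foxp2, and none of Gad1, Gad2, Eomes, Cldn5 or Flt1. The values that chose the cells are therefore given below as a description only.

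The study profiled mouse cortex at E18.5 (embryonic day) with Seq-Well, a microwell method that captures the 3′ ends of transcripts from single cells. The 7 libraries came from 7 embryos of 1 litter, with 1 library per embryo. The 4 mutants (10, 11, 12 and 17) were Emx1CreERT2;Ash1l fl/fl and the 3 controls (14, 15 and 16) were Ash1l fl/fl without the Cre allele. The dam received tamoxifen at 100 mg/kg at E10.5, so both groups carried the floxed Ash1l alleles and had the same drug exposure, and only the mutants carried CreERT2, which acts in progenitors of the dorsal telencephalon.

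Subcerebral projection neurons are the large layer 5 neurons whose axons leave the cortex for the brainstem and spinal cord. The transcription factor Fezf2 directs this fate and the zinc finger protein Bcl11b (Ctip2) acts downstream of it in axon outgrowth. ASH1L is a histone methyltransferase that places methyl groups on lysine 36 of histone H3.

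The libraries held 7083225 to 11859209 UMIs, and 2114 to 4285 barcodes per embryo were kept. The members numbered 63, 62, 49 and 135 in mutants 10, 11, 12 and 17, and 114, 145 and 173 in controls 14, 15 and 16. Their summed depth ran from 177205 UMIs in mutant 12 to 868029 in control 16, so values from mutant 12 carried the largest counting error. Pairs of libraries shared 78 kept barcode sequences over 21 pairs, at most 6 in a pair, and no member was among them. Doublets were neither called nor removed.

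The members were deep barcodes. Their median depth was 2711 to 4598 UMIs in the mutants and 3431 to 6003 in the controls, which was 2.18 to 2.81 times the median of all kept barcodes of the same library. Of all kept barcodes, 1096 had at least 3 UMIs of the 5 selecting genes, 874 of these passed the corticothalamic limit, 744 had no Gad1, Gad2 or Eomes, and 741 also lacked Cldn5 and Flt1. At least 3 UMIs of the 5 genes were found in 4.43% of the 3091 radial glia type barcodes (at least 6 UMIs of Slc1a3, Fabp7 and Vim; median depth 1946 UMIs) and in 4.76% of all kept barcodes (median 1397 UMIs). The share was 5.52% in 870 interneuron type barcodes (median 2072 UMIs) and 0 of 36 in microglia type barcodes, which allows up to 9.64% (Wilson). In endothelial type barcodes it was 2 of 18 (11.1%, Wilson interval 3.10 to 32.8). Radial glia and interneuron type barcodes thus reached the 5-gene sum about as often as all kept barcodes did. Between 6.90% and 14.9% of the members of an embryo carried 6 or more radial glia UMIs. Between 71.0% and 92.5% carried a UMI of Neurod2 or Neurod6, transcription factors of cortical glutamatergic neurons.

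Fezf2 was the selecting gene seen most often, in 532 of the 741 members. A single selecting gene supplied all the UMIs in 204 members, 2 genes in 288, 3 genes in 182, 4 genes in 50 and all 5 in 17. Just inside the threshold were 337 members with exactly 3 selecting UMIs, in which Bcl11b stood at 371 CPM (UMI counts scaled to a common total, the same for every embryo and set of cells). Just outside were 807 barcodes with 2, in which Bcl11b stood at 268 CPM, and in the 404 members with 4 or more it stood at 541. Crym did not follow that order, with 281, 376 and 302 CPM in barcodes with 2, 3 and 4 or more selecting UMIs.

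Genes that took no part in the selection described the members against all other kept barcodes of the same embryo. This contrast is the one the selection made, so it has no test, and levels in it are CPM of UMIs summed over cells. Of 20 genes on a list of subcerebral identity that were measured and not used in the selection, 12 were higher in the members in all 7 embryos and 1 was lower in all 7. Over all 11502 genes measured, which are those with at least 10 UMIs in the members, 7.81% were higher and 10.8% lower in all 7 embryos. Bcl11b stood at 477 CPM in the members against 218 in the other barcodes. Crym, a thyroid hormone binding protein, stood at 330 against 156, and S100a10, the annexin partner p11, at 202 against 61.0. Npr3, a natriuretic peptide clearance receptor, stood at 41.6 against 8.53.

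The ETS factor Etv1 (29.6 against 14.1 CPM), the HMG-box factor Tox (96.7, 2.76-fold), the SOX factor Sox5 (229 against 98.0) and the cadherin Cdh13 (155 against 65.0) were also higher in every embryo. Pcp4, a calmodulin-binding peptide listed with the class, went the other way, at 26.03 in the members and 48.7 in the rest. It was most abundant in the corticothalamic type cells, at 169 CPM. These 370 cells were selected by the mirrored rule, with at least 3 corticothalamic UMIs and at most 2 of the 5 layer 5 genes. They also held Reln, a gene of Cajal-Retzius cells, at 3179 CPM, against 73.7 in the members. The set is therefore not a clean set of corticothalamic neurons, and how many of its cells were of the Cajal-Retzius type was not tested.

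Of the 22 genes on a callosal and upper layer list, 9 were lower in the members in all 7 embryos and 5 were higher in all 7. Cux1 (94.3 against 256 CPM) and Cux2 (37.8 against 120), homeodomain factors of upper layer neurons, were lower, as were the netrin receptor Unc5d (33.7 against 86.9) and the LIM factor Lhx2 (139 against 207). Rorb (88.8 against 29.7), the soluble guanylate cyclase subunit Gucy1a3 (328 against 161) and the basic helix-loop-helix factor Bhlhe22 (329 against 170) were higher. On the corticothalamic list, outside the selecting genes, 2 of 9 genes were higher in all embryos (Rprm and Lmo3) and 2 lower (Nfia and Wnt7b).

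**Figure D1:**
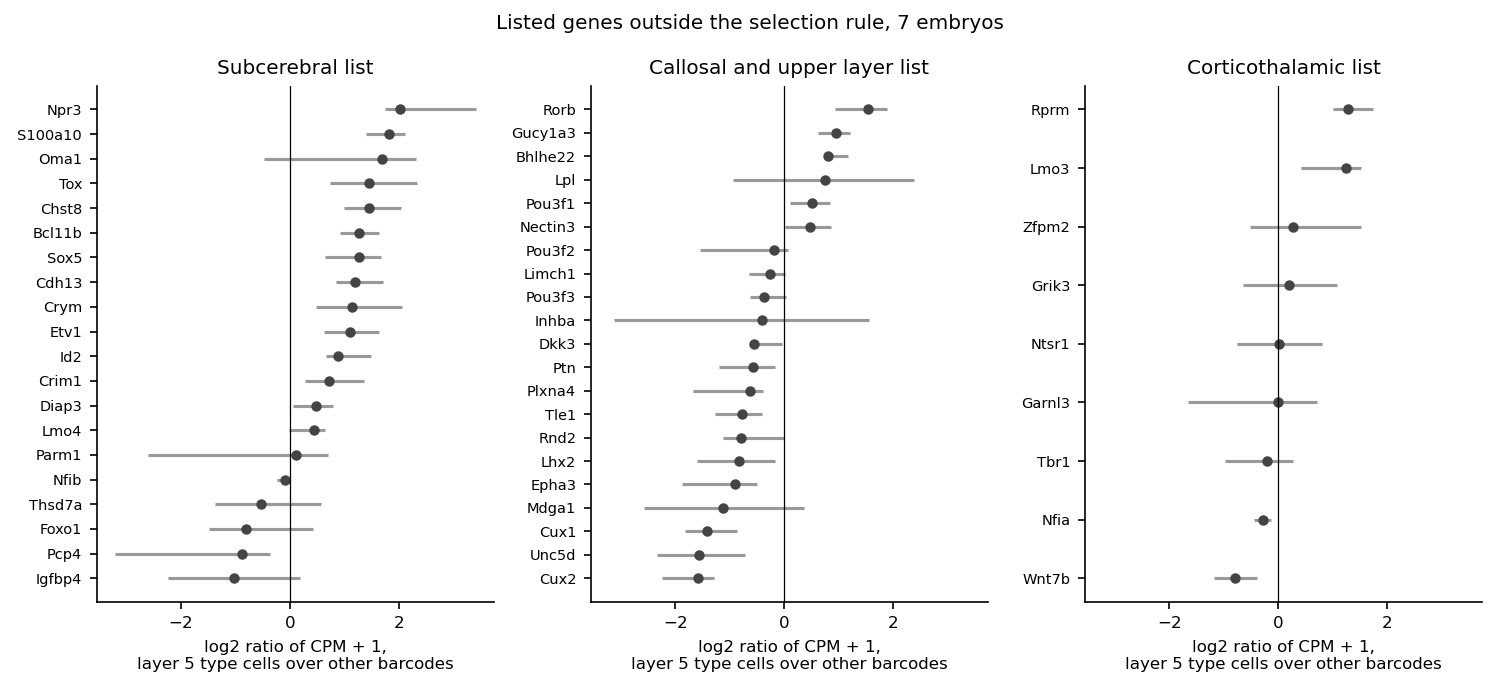
Log2 ratio of the level (CPM plus 1) in layer 5 type cells to that in all other kept barcodes for listed genes outside the selection rule; points are medians and lines the range over 7 embryos. Bcl11b, S100a10, Npr3, Tox and Crym lie above 0 in every embryo, and Cux1, Cux2 and Unc5d below 0 in every embryo.

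Genes at 50 CPM or more in the members were ordered by the median over embryos of the log2 ratio to the other barcodes, and the first was Nts, the precursor of the peptide neurotensin. It stood at 237 CPM in the members against 46.8. It varied between embryos, with 84.4, 791, 50.8 and 497 CPM in mutants 10, 11, 12 and 17 and 133, 251 and 129 in controls 14, 15 and 16. The neural adhesion molecule Ncam2 followed with 101 against 21.2, then the uncharacterised 6430573F11Rik with 74.3 against 14.4, then S100a10, given above, and the glycine receptor subunit Glra2 with 122 against 40.0. Further down the same order, Slc6a15, a neutral amino acid transporter, stood at 176 against 60.1, Sparcl1, a matricellular protein, at 365 against 157, and Camkv, a calmodulin kinase-like vesicle protein, at 269 against 102. Compared with the corticothalamic type cells, Ncam2, 6430573F11Rik, S100a10, Slc6a15, Tox, Fosl2 and Sparcl1 were higher in all 7 embryos, whereas Camkv was higher in 2 and the glutamate receptor Grm3 in 1. Nts was higher in 5, but summed over embryos it stood at 257 CPM in the corticothalamic type cells against 237 in the members. Bcl11b was higher in the members than in these cells in every embryo except control 15 (498 against 577 CPM).

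Of 37 measured genes of the axonal cytoskeleton and transport, 26 were higher in all 7 embryos and 1, the kinesin Kif21a, was lower in all 7. The growth cone protein Gap43 stood at 859 against 422 CPM, the microtubule regulator Stmn2 at 2372 against 1291, tau (Mapt) at 1918 against 1045 and the neurofilament gene Nefl at 245 against 130. The dynein intermediate chain Dync1i1 stood at 343 against 148. Of 31 axon guidance receptors, 6 were higher and 10 lower in all embryos: Robo1, a Slit receptor (365 against 217), L1cam (279 against 169), Chl1 (989 against 545) and Cntn1 (110 against 52.1) were among the higher, and Epha4 (218 against 314) and Cntn2 (638 against 885) among the lower. Deeper barcodes were selected, and an abundant gene reaches the same direction in all 7 embryos more easily than a sparse one. The parts of depth and of abundance in these ratios and counts were not tested.

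Excitability and synapse genes included 8 of 23 voltage-gated channels, 9 of 20 glutamate and GABA receptors and 12 of 26 adhesion and synapse organising genes that were higher in all 7 embryos. Lower in all 7 were 1, 1 and 3 genes of these lists. Among all 11502 genes measured the shares were 7.81% higher and 10.8% lower. The parts of depth and of abundance in these counts and ratios too were not tested. The potassium channel Kcnq5 stood at 40.3 against 10.4 CPM and the sodium channel Scn2a at 148 against 68.0. The metabotropic glutamate receptor Grm5 (107 against 51.0) and the GABA-A receptor subunit Gabra5 (67.7 against 26.7) were higher, and the AMPA receptor subunit Gria1 was lower (91.8 against 151).

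Markers of other cell types remained in the members. The summed level of 13 radial glia genes was 1061 to 2777 CPM in the members and 2955 to 3949 in the other barcodes of the same embryos. Erythroid genes summed to 102 to 2309 CPM in the mutants' members and 40.3 to 861 in the controls' members, with the highest value in mutant 10. The 10 microglia genes summed to at most 28.2 CPM.

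Bcl11b, which took no part in the selection, was detected in 448 of the 741 members and not in 293. The members with a Bcl11b UMI were deeper, with a median of 4070 UMIs against 3250, and the part of depth in this split was not tested. They held 429 CPM of Crym, 58.7 of Npr3 and 278 of Kif26a, which is one of the selecting genes. The members without it held 154 CPM of Crym, 11.4 of Npr3 and 122 of Kif26a. Gucy1a3 went the other way, at 185 CPM with Bcl11b and 580 without, as did Cux1 (66.9 and 143) and the radial glia gene Fabp7 (416 and 1179). Fezf2 (383 and 339) and Ldb2 (283 and 362), through which both sets qualified, lay close together. The subcerebral list did not move as 1 group in this split. S100a10 stood at 239 CPM with Bcl11b and 136 without, which was still above the 61.0 of the other kept barcodes, and the LIM-only protein Lmo4, also on that list, was higher without Bcl11b (364 and 611). Crym without Bcl11b (154 CPM) lay at about the level of the other kept barcodes given above, and Npr3 (11.4) lay little above it. Gucy1a3 without Bcl11b (580) lay far above its level in those barcodes. How many of these 293 members were subcerebral neurons was not tested.

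**Figure D2:**
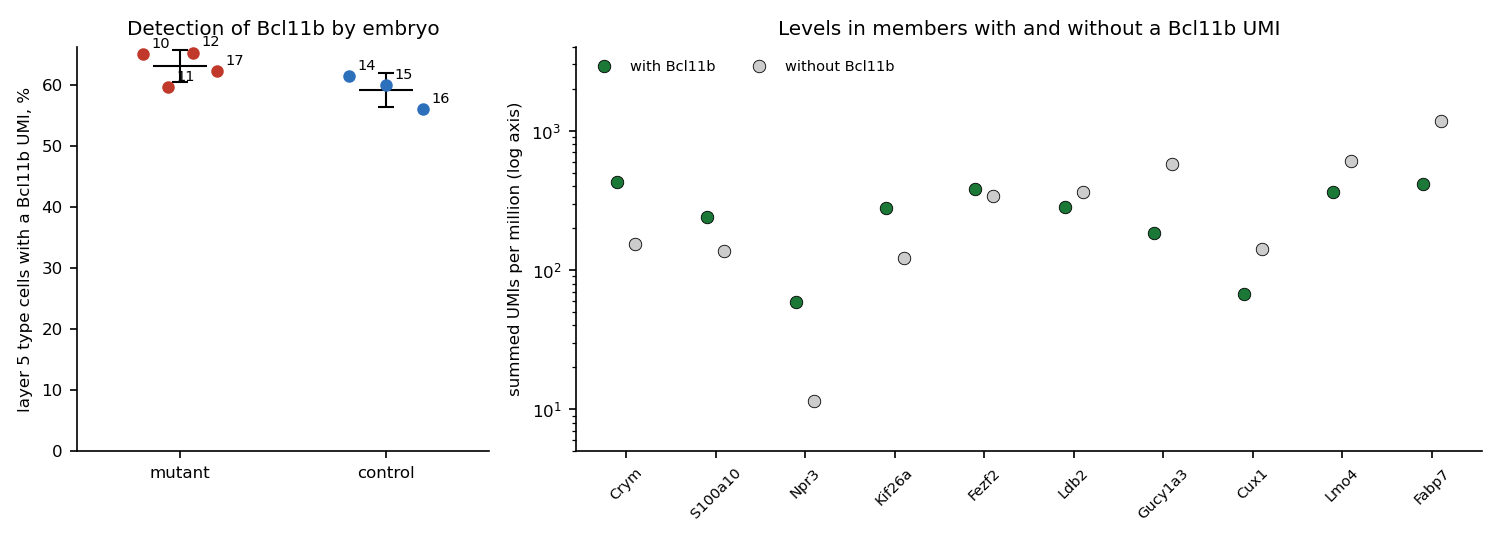
Left, share of layer 5 type cells of each embryo (numbered points) with a Bcl11b UMI, with mean and SD of 4 mutants and 3 controls; right, summed level (CPM, log axis) of 10 genes in members with and without a Bcl11b UMI, pooled over embryos. The share is 59.7% to 65.3% in the mutants and 56.1% to 61.4% in the controls; Crym, S100a10, Npr3 and Kif26a are higher with Bcl11b, and Gucy1a3, Cux1, Lmo4 and Fabp7 higher without.

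The first comparison by genotype concerned how many of the captured cells were layer 5 type. Members made up 2.98% (95% Wilson interval 2.34 to 3.79), 1.97% (1.54 to 2.51), 1.32% (0.999 to 1.74) and 3.71% (3.14 to 4.37) of the kept barcodes in mutants 10, 11, 12 and 17. They made up 5.17% (4.33 to 6.18), 3.72% (3.17 to 4.36) and 4.04% (3.49 to 4.67) in controls 14, 15 and 16, where the intervals cover counting error only. Every control lay above every mutant, but mutant 17 and control 15 differed by far less than their intervals. The mean was 2.49% ± 1.06 (SD, n = 4) in the mutants and 4.31% ± 0.764 (SD, n = 3) in the controls, a two-sided exact permutation p of 0.0571 that adjustment over 3 shares raised to 0.0857. The smallest p that these groups allow is 0.0286.

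The share depended on depth, because a deeper barcode reaches 3 selecting UMIs more easily. When each kept barcode with at least 1000 UMIs was thinned at random to 1000, the share was 0.569, 0.661, 0.379 and 1.24% in mutants 10, 11, 12 and 17, and 0.95, 1.28 and 1.21% in controls 14, 15 and 16. Mutant 17 then lay within the controls' range and the other 3 mutants below it. The means were 0.711% ± 0.369 (SD, n = 4) and 1.15% ± 0.173 (SD, n = 3), with an exact permutation p of 0.143. The median depth of the members themselves, 3371 ± 865 UMIs in the mutants and 4448 ± 1368 in the controls, overlapped (exact permutation p = 0.286, n = 4 and 3). That difference of -1076 UMIs was -299 without control 14 and -1585 without control 15. Corticothalamic type cells made up 1.37, 1.24, 0.915 and 1.57% in mutants 10, 11, 12 and 17 and 2.54, 2.31 and 1.52% in controls 14, 15 and 16, and mutant 17 lay above control 16 (exact permutation p = 0.0571, n = 4 and 3).

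**Figure D3:**
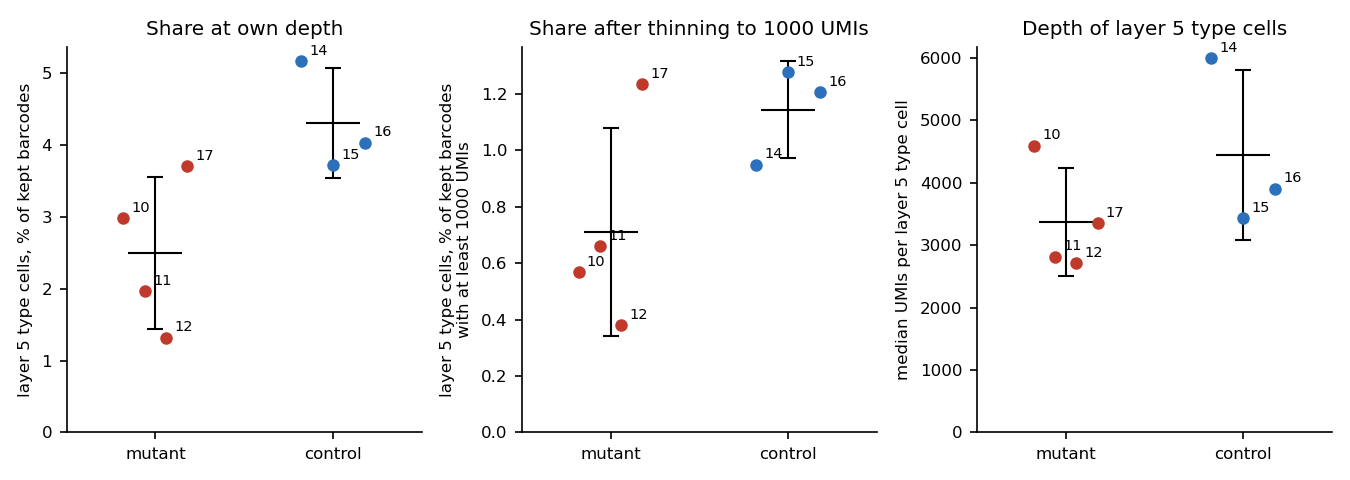
Each point is 1 embryo, numbered; bars are the mean and SD of 4 mutants and 3 controls. At their own depth every control (3.72% to 5.17%) lies above every mutant (1.32% to 3.71%), while after thinning to 1000 UMIs mutant 17 (1.24%) lies among the controls, and the median depth of the cells overlaps between the groups.

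The selecting genes were also compared over all kept barcodes, where membership plays no part. Fezf2 stood at 81.6, 91.8, 72.3 and 135 CPM in mutants 10, 11, 12 and 17 and at 92.2, 95.4 and 111 in controls 14, 15 and 16, and the groups overlapped. Ldb2, a LIM domain binding cofactor, stood at 50.4, 43.2, 27.3 and 69.5 in these mutants and 54.4, 79.7 and 90.3 in these controls, and it overlapped through mutant 17 and control 14. None of the 5 passed edgeR's quasi-likelihood test with Benjamini-Hochberg adjustment over 12893 genes, of which 0.0233% passed: the log2 difference was -0.65 for Ldb2 (unadjusted p = 0.0121, adjusted p = 0.383), -0.56 for Tcerg1l (unadjusted p = 0.0416), and between -0.06 and -0.20 for Fezf2, Kif26a and Cntn6.

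Among the members, a Bcl11b UMI was seen in 65.1, 59.7, 65.3 and 62.2% in mutants 10, 11, 12 and 17, and in 61.4, 60.0 and 56.1% in controls 14, 15 and 16. The groups overlapped, because mutant 11 lay below controls 14 and 15. The mean was 63.1% ± 2.66 (SD, n = 4) in the mutants and 59.2% ± 2.77 (SD, n = 3) in the controls, with an exact permutation p of 0.143. Thinned to 1000 UMIs per cell it was 37.5% ± 3.64 (SD, n = 4) against 33.2% ± 2.06 (SD, n = 3), with an exact permutation p of 0.171. In the other kept barcodes at their own depth, 25.6, 17.5, 21.9 and 20.1% carried a Bcl11b UMI in mutants 10, 11, 12 and 17. The share was 28.6, 25.1 and 25.0% in controls 14, 15 and 16, so mutant 10 lay above controls 15 and 16. Over all kept barcodes Bcl11b stood at 217 CPM in the mutants and 260 in the controls, without overlap (edgeR adjusted p = 0.446).

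UMIs of the members were then summed per embryo and 7999 genes were tested by genotype with edgeR, with levels given as TMM-normalised CPM over the genes tested. Spr and Cck, both higher in the mutants, were the 2 genes with an adjusted p under 0.05 (0.025% of those tested). Groups that did not overlap were found in 6.66% of all genes tested, 3.41% higher and 3.25% lower in the mutants. The embryos are separate animals of 1 litter, so the p-values measure the spread within that litter.

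Ash1l (chromosome 3, 88950622 to 89079375, plus strand, GRCm38), the targeted gene, stood at 142, 97.3, 136 and 102 CPM in mutants 10, 11, 12 and 17 and at 154, 168 and 193 in controls 14, 15 and 16. Every mutant was below every control, by 1.45-fold in the fit, with an adjusted p of 0.649 (edgeR, log2 difference -0.54, SE 0.179, unadjusted p = 0.00543). A UMI was found in 33.8% ± 7.34 of mutant and 46.2% ± 6.03 of control members (exact permutation p = 0.0857, n = 4 and 3). The labels used here do not say which exons are floxed, and a 3′ tag outside the deleted part would not check the deletion.

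Spr encodes sepiapterin reductase, which makes the last step of tetrahydrobiopterin synthesis. It stood at 77.8, 112, 70.9 and 98.5 CPM in mutants 10, 11, 12 and 17, and at 31.8, 37.8 and 26.8 in controls 14, 15 and 16. All mutants were above all controls, 89.8 ± 18.9 (SD, n = 4) against 32.1 ± 5.52 (SD, n = 3), a 2.84-fold difference with a log2 SE of 0.251 (edgeR adjusted p = 0.0129). The rise was spread over cells: 20.4% to 30.6% of mutant members carried a UMI against 11.6% to 18.4% of control members, and no member held more than 6. The log2 difference was 1.51 in the layer 5 type cells and 1.31 in all other kept barcodes, and the interaction term for the difference between these was 0.15 (SE 0.257, edgeR adjusted p = 0.999).

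Spr lies on chromosome 6 (85130176 to 85137766, minus strand, GRCm38), 49.7 kb from Emx1 (85187438 to 85204462, plus strand), the locus named in the Cre allele that all mutants and no control carried. The Ash1l deletion and the presence of the Cre allele cannot be told apart, for this gene or for any other difference between the groups. Of 12 protein-coding genes within 500 kb of Emx1, 7 were tested in the members and Spr alone passed. Emx1 itself stood at 48.1 ± 12.7 CPM (SD, n = 4) in the mutants and 47.5 ± 15.5 (SD, n = 3) in the controls.

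Cck encodes the neuropeptide cholecystokinin. It stood at 115, 73.01, 130 and 128 CPM in mutants 10, 11, 12 and 17 and at 52.1, 47.7 and 33.8 in controls 14, 15 and 16. The groups did not overlap, at 112 ± 26.6 (SD, n = 4) against 44.5 ± 9.56 (SD, n = 3), a 2.57-fold difference with a log2 SE of 0.236 (edgeR adjusted p = 0.0129). The difference rested on few cells. A single member held 24 of the 43 Cck UMIs in mutant 10, 37 of 69 in mutant 17 and 8 of 22 in mutant 12, while no control member held more than 5. The share of members with a Cck UMI was 15.9, 14.5, 14.3 and 10.4% in mutants 10, 11, 12 and 17 and 18.4, 11.0 and 11.0% in controls 14, 15 and 16, which overlapped (means 13.8 and 13.5%, exact permutation p = 0.857, n = 4 and 3).

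With each gene's highest member left out in every embryo, Cck stood at 66.8 ± 18.8 CPM (SD, n = 4) in the mutants and 40.5 ± 9.17 (SD, n = 3) in the controls, 1.63-fold apart, and no longer passed (edgeR adjusted p = 0.702), although the mutants (54.9 to 94.7) still lay above the controls (30.7 to 48.9). Spr kept its call in that fit (adjusted p = 0.0105, 2.96-fold). Every gene lost the UMIs of its own highest member there, which is a larger part of the members in embryos with few of them. The CPM given are of the smaller totals that remain, so they are not on the scale of the normalised CPM. Cck also lost its call without mutant 10 (adjusted p = 0.0651), without mutant 17 (0.108), without control 15 (0.0515) and without control 16 (0.0884), and Spr without mutant 17 (0.0881) and without control 16 (0.0543), with folds of 2.27 to 2.65 for Cck and 2.60 to 2.69 for Spr in these edgeR fits. Spr also missed the threshold when members over 3 times the median depth were left out (2.42-fold, edgeR adjusted p = 0.702), and so did it when members with any corticothalamic UMI were left out (2.77-fold, 0.155). Over the alternatives reported here, Spr passed in 19 of 26 with folds of 2.42 to 3.07, and Cck in 13 of 25 with folds of 1.48 to 2.84.

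**Figure D4:**
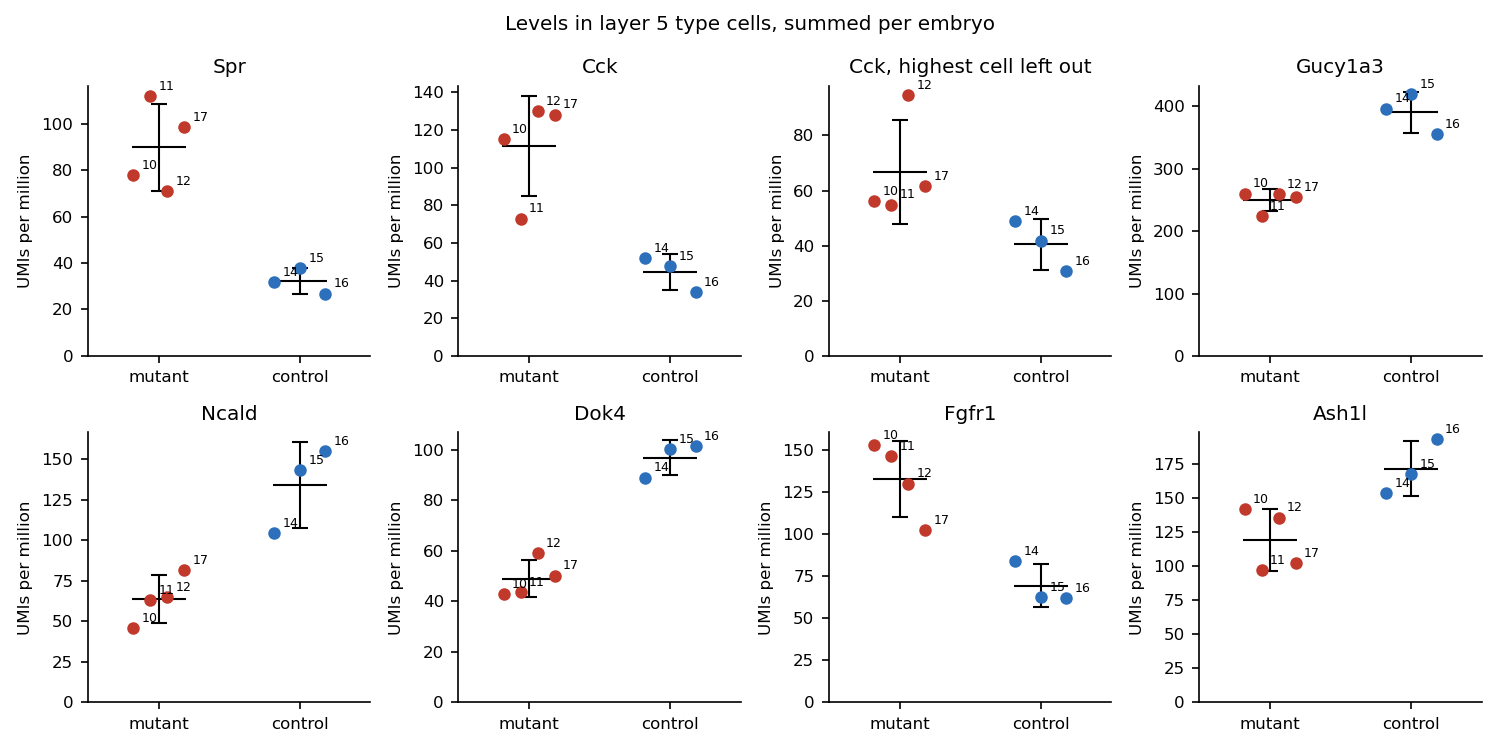
Level of 7 genes in layer 5 type cells of each embryo (numbered points, normalised CPM), with mean and SD for 4 mutants and 3 controls. In the third panel the UMIs of the highest member of each gene are left out for every gene, and CPM are of the smaller totals that remain. Spr is 2.84-fold higher in the mutants. The Cck means are 112 and 44.5 with all members and 66.8 and 40.5 in the third panel, on differently scaled totals.

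Genes with separate groups that did not reach the threshold included Gucy1a3. It stood at 260, 224, 260 and 255 CPM in mutants 10, 11, 12 and 17 and at 397, 419 and 355 in controls 14, 15 and 16. All mutants were below all controls, 1.55-fold apart (edgeR adjusted p = 0.125). Within the members with Bcl11b, the log2 difference of Gucy1a3 was -0.11 (edgeR adjusted p = 0.983), and that of Spr was 1.59 (0.0207).

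The other genes with separate groups and the smallest p on the lower side included the neuronal calcium sensor Ncald (63.9 ± 14.8 against 134 ± 26.5 CPM, n = 4 and 3; edgeR adjusted p = 0.0933), the adaptor Dok4 (49.0 against 96.9, 0.111), the poly(A) binding protein Pabpn1, Sdad1, the leucine-rich repeat protein Lrrn2, the transporter Slco3a1, the mitochondrial chaperonin Hspe1 and the growth cone protein Basp1 (962 against 1364, 0.536). On the higher side they included the growth factor receptor Fgfr1 (133 against 69.4 CPM, edgeR adjusted p = 0.125), Sympk, Hnrnpll, Olfm2, N6amt2, the anion exchanger Slc4a3, Gpatch2l, and the synaptic release proteins Doc2b (26.3 against 8.57) and Unc13a (171 against 112), the last 2 both at an adjusted p of 0.649. None of these passed the test.

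Npy, the neuropeptide Y precursor, had a small p without separate groups. It stood at 16.1, 73.01, 17.7 and 31.6 CPM in mutants 10, 11, 12 and 17 and at 66.1, 85.5 and 191 in controls 14, 15 and 16, 3.57-fold apart (edgeR adjusted p = 0.0787). Mutant 11 lay above control 14, and single members held 13 of the 15 Npy UMIs of mutant 11 and 32 of the 52 of control 14. With each gene's highest member left out in every embryo, Npy stood at 11.8, 11.0, 13.5 and 25.0 CPM in these mutants and 26.4, 73.2 and 164 in these controls. The groups were then separate, narrowly between mutant 17 and control 14, and the gene passed (4.90-fold, edgeR adjusted p = 0.0276). That call rested on few UMIs. Mutants 10, 11 and 12 had held 6, 15 and 3 Npy UMIs, of which 2, 13 and 1 were in the member left out. Npy passed in 5 of 26 alternatives, with folds of 2.08 to 5.48. Esr1, the oestrogen receptor gene whose ligand-binding domain is the model for the ERT2 part of the Cre, had too few UMIs in the members to be tested, with 3, 2, 0 and 5 in mutants 10, 11, 12 and 17 and 1, 0 and 1 in controls 14, 15 and 16.

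The gene lists were read by their counts and medians beside those of all 7999 genes, whose median log2 difference was 0.0029 and of which 6.46% had an unadjusted p under 0.05, 3.35% higher and 3.11% lower in the mutants. On the callosal and upper layer list 21 genes were tested and 16 were on the lower side, with a median of -0.32. Of these, 6 had an unadjusted p under 0.05, all lower, among them Gucy1a3, the growth factor Ptn (1.47-fold) and Limch1 (1.36-fold), and none passed the adjusted test. The summed level of the list was 2315 to 3058 CPM in the mutants' members and 3217 to 3375 in the controls'. For Gucy1a3, Ptn and Limch1 the log2 difference was -0.64, -0.56 and -0.45 in the members. It was -0.51, -0.36 and -0.32 in all other kept barcodes.

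Genes of glutamatergic neurons in general had a lower summed level in the mutants' members too, though not every gene was lower. Their list of 11 genes summed to 2601 to 3040 CPM in the mutants and 3070 to 3488 in the controls, without overlap. Of the 9 tested, 6 were on the lower side (3967 of all 7999 genes were), with a median log2 difference of -0.07, and none passed the adjusted test. Slc17a6 (44.5 against 25.8 CPM), Neurod1 (67.4 against 51.6) and Emx1 were on the higher side, with overlapping groups. Neurod2 stood at 212, 224, 272 and 301 CPM in mutants 10, 11, 12 and 17 and 342, 405 and 333 in controls 14, 15 and 16 (log2 difference -0.50, unadjusted p = 0.00368, edgeR adjusted p = 0.649). The transcription factor Mef2c (728 against 924, unadjusted p = 0.0268, edgeR adjusted p = 0.756) also had separate groups. These differences were not particular to the members. In all other kept barcodes the log2 difference was -0.39 for Neurod2 and -0.44 for Mef2c, against -0.50 and -0.33 in the members. The share of members with a UMI of Neurod2 or Neurod6 was 74.6, 71.0, 79.6 and 85.9% in mutants 10, 11, 12 and 17 and 86.8, 83.4 and 92.5% in controls 14, 15 and 16, and mutant 17 lay above control 15. The part of this share in the list differences was not tested.

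On the subcerebral list 17 genes outside the selection were tested, with a median of 0.19 and 10 on the higher side. Npr3 stood at 51.0, 68.1, 53.1 and 57.6 CPM in mutants 10, 11, 12 and 17 and 31.8, 39.5 and 34.96 in controls 14, 15 and 16, without overlap (1.61-fold, unadjusted p = 0.0132, edgeR adjusted p = 0.737). Crim1, a BMP-binding membrane protein of corticospinal neurons, had 89.2 against 60.6 (unadjusted p = 0.0192), Pcp4 16.4 against 31.9 (0.0293) and Id2 315 against 395 (0.0484), and none of these passed in edgeR. Bcl11b differed by 0.24 (log2). Of the corticothalamic list 9 genes were tested with a median of -0.20: Zfpm2 (53.4 against 27.0 CPM) lay higher and Lmo3 (140 against 207) lower in the mutants without overlap, at edgeR adjusted p-values of 0.649 and 0.669.

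For the axon, 36 cytoskeletal and transport genes had a median of -0.06, with 24 on the lower side. Basp1, Marcksl1 (1086 against 1416 CPM), Marcks (608 against 821) and Kif21a (168 against 215) had the smallest unadjusted p-values on that list, and 5 of the 36 were under 0.05, all lower in the mutants. The first 3 are membrane-bound growth cone substrates of protein kinase C. For Basp1, Marcksl1, Marcks and Kif21a the log2 difference was -0.49, -0.38, -0.43 and -0.36 in the members. It was -0.47, -0.45, -0.41 and -0.04 in all other kept barcodes. The 29 guidance receptors had a median of 0.08, with L1cam (348 against 251 CPM, 394, 341, 307 and 349 in mutants 10, 11, 12 and 17 and 289, 258 and 206 in controls 14, 15 and 16) and the semaphorin receptor Plxnb1 (98.9 against 68.4) under an unadjusted p of 0.05. None of the 16 guidance ligands was under 0.05. No gene of these lists passed the adjusted test.

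No gene of the excitability and synapse lists passed the adjusted test. The 20 voltage-gated channel genes had a median of 0.19 with 15 on the higher side, and the calcium channels Cacna1h (90.8 against 58.1 CPM) and Cacna1e (105 against 71.5) had unadjusted p-values of 0.0122 and 0.0255 in edgeR. The sodium channel Scn3a was at 111 against 146. The 17 glutamate and GABA receptor genes had a median of 0.06 and none under 0.05, and the 20 vesicle release genes a median of 0.07 with 1, the calcium sensor Syt1 (143 against 202), under 0.05. The 25 adhesion and synapse organising genes had a median of 0.0043 with 2 under 0.05 in each direction: Lrrn2 and Cadm2 on the lower side, Islr2 and Ptprs on the higher. The RNA-binding splicing regulators Rbfox3 (70.6 against 106) and Rbfox1 (168 against 233) were the 2 of 15 axonal mRNA and RNA-binding genes under 0.05. For Syt1, Rbfox3 and Rbfox1 the log2 difference was -0.44, -0.56 and -0.42 in the members. It was -0.51, -0.24 and -0.60 in all other kept barcodes.

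The 12 tested genes of H3K36 methylation and ASH1L's complex had a median of 0.06. Besides Ash1l, Psip1, a reader of H3K36 methylation, stood at 311 against 399 CPM and the demethylase Kdm4a at 163 against 127, both without overlap and at an edgeR adjusted p of 0.737 and 0.756. The immediate early list (17 tested, median -0.0004) had Fosb (164 against 103) and Nr4a3 (158 against 105) on the higher side and Atf3 on the lower under an unadjusted p of 0.05, and the heat shock list (11 tested, median -0.02) had Hspe1 and Hspa5 on the lower side. Of 11 radial glia genes tested, 8 were on the lower side with a median of -0.17, and all 4 erythroid genes were on the higher side with a median of 1.33 and the highest summed level in mutant 10. None passed the adjusted test.

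**Figure D5:**
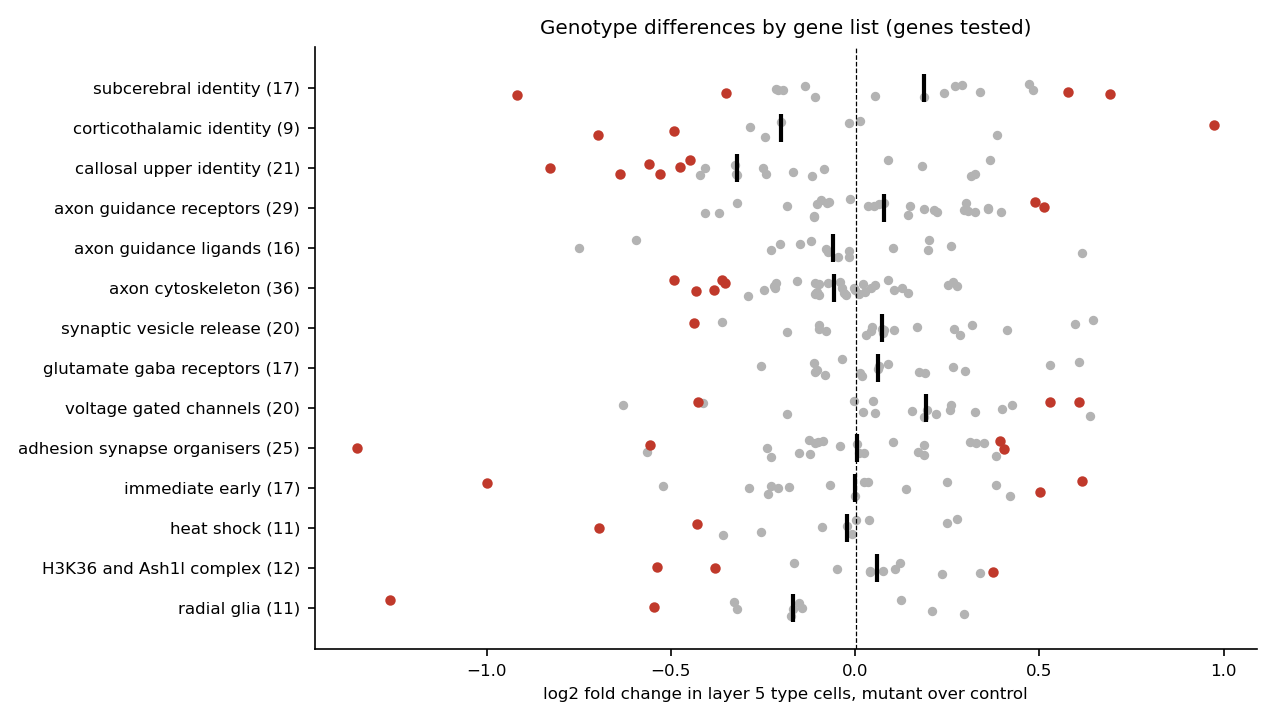
Log2 fold change, mutant over control, of each tested gene on 14 lists in layer 5 type cells; red points have an unadjusted p under 0.05, black ticks are list medians and the dashed line is the median of all genes tested. The callosal and upper layer list has the lowest median shown (-0.32), and the subcerebral list (0.19) lies above the median of all genes.

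Whether a genotype difference was larger in the layer 5 type cells than in the other barcodes was tested with an interaction term, with each embryo as its own block. Of 12188 genes, 2 passed (0.0164%), Cck and Ttr. Cck differed by 1.36 (log2) in the members and by 0.02 in all other barcodes, a difference of 1.35 (SE 0.254, edgeR adjusted p = 0.00867), and it carried the same concentration in single cells. For Ttr, a choroid plexus transcript, 992 UMIs came from 1 member of mutant 12, with 0 in the other 3 mutants and 1 in control 14. With each gene's highest member left out in every embryo, 9 other genes passed and neither of these did, at 0.65 for Cck (edgeR adjusted p = 0.795) and 0.32 for Ttr (1.0), and without mutant 12 no gene passed. The fit without the highest members left the other barcodes whole. A single cell is also a larger part of the members where they are few, as in mutant 12 (49) against control 16 (173). The calls gained and lost there are therefore not like for like with the fit on all members. In the fit with all members and embryos, Bcl11b came next with a difference of 0.46 (0.24 in the members, -0.26 in the others, edgeR adjusted p = 0.267).

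Against the 370 corticothalamic type cells, 0 of 5731 genes passed (0.0% called) by edgeR and 280 (4.89%) had an unadjusted p under 0.05. This set was rich in Reln, as given above, so it is a mixed comparator. The smallest p belonged to the intermediate filament Vim (difference -1.76) and the phosphodiesterase Pde1a (1.98), both at an adjusted p of 0.195, then to Cck (2.63, adjusted p = 0.412), the protocadherin Fat4 and the matrix glycoprotein Tnc.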

How the data were processed

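The authors deposited 1 table of raw UMI counts per embryo, genes by barcodes, which is the unit used throughout; per the submitters' processing notes reads were aligned with STAR to mm10, while neither the aligner's version nor the annotation is given in the sources used here. The members, gene lists and comparisons were chosen with earlier results of these data known. Barcodes were filtered, classified and summed per embryo with Python 3.11.15, numpy 2.4.6 and pandas 2.3.3. Sums were tested with edgeR 4.0.16 (filterByExpr, TMM, quasi-likelihood F test, Benjamini-Hochberg, adjusted p under 0.05), with DESeq2 1.42.0 and limma 3.58.1 (voom with quality weights) as alternatives, and fits were tested on simulated data. Shares were compared by exact permutation over all 35 splits with scipy 1.17.1, two-sided. Thinned shares are means of 20 draws. Gene positions are from GENCODE M21 (GRCm38, the assembly named mm10).

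Named genes are those that passed, Ash1l, the 10 higher and 10 lower with the smallest p, separate groups and at least 20 CPM (mitochondrial, ribosomal, sex-linked, Gm and Rik names left out), and up to 4 per list with the smallest p, restricted after the data were seen to an unadjusted p under 0.05. Bcl11b in the genotype comparison, Esr1, Emx1 and the genes near it were chosen after their values were seen. Some genes, and the alternatives that need them, are not reported here. UMI totals limit precision, and intervals cover counting error only. Of the listed genes, 3 entries had no row in the tables and 5 were found under an older symbol.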

Additional observations from a re-analysis of the deposited data

Results flagged for a closer look

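Ttr was flagged because its genotype difference in the layer 5 type cells differed from that in all other kept barcodes, by 10.47 on the log2 scale (edgeR adjusted p = 7.09e-18). It came from 1 barcode of mutant 12, and with each gene's highest member left out in every embryo the difference was 0.32 (adjusted p = 1.0). Cck was flagged for the same reason, with a log2 difference of 1.35 (edgeR adjusted p = 0.00867).

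A single embryo stood apart from the other 3 mutants in 2 of 26 values examined, and chance gives about 1 in 20. Olfm2 stood at 44.6 CPM in the members of mutant 17, against 63.3 to 67.1 in the other mutants. Gucy1a3 stood at 224 in mutant 11, against 255 to 260 in the other mutants.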

How the results depend on the processing

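The lower share of layer 5 type cells in the mutants kept its direction in all alternatives reported here. The difference was -1.57 percentage points with corticothalamic genes at 0 UMIs, with an exact permutation p of 0.0286, and -2.22 to -1.39 points without single embryos. Other settings weakened it. The exact permutation p was 0.143 with at least 4 selecting UMIs and in members with Bcl11b. Without members over 3 times the median depth it was 0.114. Thinned to 1500 UMIs the difference was -0.597 points (exact permutation p = 0.4). There mutant 17, at 3.21%, lay above controls 14, 15 and 16, at 1.88, 2.64 and 2.77%.

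The number of genes passing by genotype was 0 with at least 4 selecting UMIs and 0 with corticothalamic genes at 0 UMIs, against 4 with limma voom and 17 without a filter. It was 9 without each gene's highest member, a setting chosen after seeing the data as were those on Bcl11b, Neurod2 and Neurod6, and radial glia UMIs. Without single embryos it ran from 1 (mutant 10, mutant 17 or control 15) to 12 (control 14). DESeq2 called 2. The interaction with the other barcodes gave 9 calls without each gene's highest member, with the other barcodes left whole, and 0 to 11 without single embryos: 1 without mutant 10, 0 without mutant 12, 8 without mutant 17, 7, 5 and 11 without controls 14, 15 and 16. With the corticothalamic type cells it gave 0 to 2. The cause was not tested.

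Of 1500 values of single genes under alternatives, 4 had the opposite sign. These were Mfge8 with at least 2 selecting UMIs (0.23), Hbb-bt in members with Bcl11b (-1.28) and without mutant 10 (-0.63), and Hspa5 without control 16 and mutant 17 (0.046). Hbb-bt reached 4.53 without control 16 and 4.96 without control 16 and mutant 17. The Cck interaction fell to 0.65 (adjusted p = 0.795) without the highest members. No paired analysis was possible because mutants and controls share no replicate number. The 49 to 173 members per embryo limit genes with few UMIs.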
